A study of Mus musculus with 24 samples.

Results

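The genes of the lysosomal proton pump, the cathepsins and a set of lysosome membrane and control genes were followed in tissue isolated as retinal pigment epithelium (RPE) from 24 mice. The members were the protein-coding genes whose symbols begin with Atp6v0 or Atp6v1, Atp6ap1 and Atp6ap2, the genes named Cts with one further letter, and Lamp1, Lamp2, Scarb2, Tfeb, Mcoln1 and Lipa, with a mean level of at least 1 CPM (counts scaled to a common library total) over the 24 libraries. Of 53700 gene identifiers in the table, 49 matched by name and 40 reached that level. They comprised 11 of 14 V1 sector genes, 9 of 9 V0 sector genes, 2 of 2 accessory genes, 12 of 18 cathepsins and 6 of 6 genes of the last set. The 9 left out were Atp6v1e2, Atp6v1fnb, Atp6v1g3, Ctse, Ctsg, Ctsj, Ctsm, Ctsq and Ctsr, none with more than 21 counts in a library. Atp6v1fnb, the nearest below the limit, had a mean of 0.775 CPM, and Atp6v1c2, the nearest above it, had 1.16 CPM. The limit used the mean level of all libraries and no difference between groups, and all 40 kept genes also passed the count filter of the tests.

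Total RNA was sequenced from 12 libraries labelled RPE Bmal1 WT and 12 labelled RPE Bmal1 KO, 3 mice each at ZT1, ZT7, ZT13 and ZT19, where ZT0 is lights on and ZT12 lights off in a light-dark cycle with 12 h of light. All were C57BL/6 mice of 12 to 16 weeks, of both sexes with the sex of a library not labelled, and all were homozygous for the floxed Bmal1 allele (Bmal1 fl/fl). Bmal1 (symbol Arntl) is a core transcription factor of the circadian clock, and its deletion depended on Rpe-CRE (Vmd2-rtTA/TetO-cre), in which doxycycline switches on Cre in RPE cells. By the methods of the study, mice on a doxycycline diet from postnatal day 60 to 74 became RPE Bmal1 KO and mice on the control diet RPE Bmal1 WT, whereas the sample records name doxycycline food for every sample. The table names its columns by diet and not by genotype, so that the genotype names used here rest on that statement of the methods. The deletion in such animals is mosaic across RPE cells. Each library pooled 2 RPE isolates of one mouse, freed by brief sonication from posterior segments that also held choroid and sclera. The question was whether these genes changed over the day in either genotype, and whether their levels differed between genotypes. The series was made to study the daily uptake of photoreceptor outer segments by the RPE, which peaks soon after light onset, and ZT1 is the sampled time closest to it.

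RPE cells engulf the shed tips of photoreceptor outer segments each day and digest them in lysosomes. The V-ATPase is the rotary pump that acidifies these compartments: its V1 sector hydrolyses ATP on the cytosolic side and its V0 sector carries protons across the membrane. Cathepsins are the proteases that work in the acid lumen, LAMP proteins and LIMP-2 (Scarb2) line the membrane, MCOLN1 releases calcium from the lysosome and LIPA hydrolyses cholesteryl esters and triglycerides. TFEB is a basic helix-loop-helix transcription factor that activates many of these genes through a palindromic element, TCACGTGA, often called the CLEAR element, whose core CACGTG is also the E-box bound by BMAL1 with CLOCK.

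Library totals ranged from 2069527 to 10572612 counts, with a median of 7000040.5. The libraries stood apart in ways the groups do not explain. Olfactory and vomeronasal receptor genes together summed to 687 to 3470.4 CPM in 5 libraries, and to 76.8 to 349 CPM in the other 19. The 5 were all replicate 1 of their group (WT ZT7, WT ZT19, KO ZT1, KO ZT7 and KO ZT13). WT ZT7 replicate 1 was also the smallest library and held 41.7% mitochondrial counts, against 3.86% for the lowest library. RPE genes were present, with Rpe65 at 38.3 to 282 CPM, whereas Best1, another RPE gene, reached no more than 7.12 CPM, and the muscle gene Ttn was abundant in all libraries (7660 to 50434 CPM). Arntl itself at ZT1 read 57.6 ± 17.7 CPM (SD, n = 3) in the WT libraries and 85.6 ± 3.96 CPM in the KO libraries, and averaged over time points it was not lower in the libraries labelled RPE Bmal1 KO (log2 difference 0.17 ± 0.23 (SE), edgeR adjusted p = 0.959). These counts span the whole gene, with exons outside the deletion, and come from all tissues in the isolate, so they cannot test whether a label is right, and every genotype difference given here is one between labelled groups. In such bulk samples, fewer cells of a type and less RNA per cell cannot be told apart.

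The start regions of the members were searched for the shared core of the CLEAR element and the E-box, because the study deleted an E-box factor and these genes are known TFEB targets. RefSeq windows of 300 bases, from 250 before to 50 after each start (GRCm38.p6, the build mm10), were found for 31 of the 40 members, some with more than 1 start, giving 37 windows. CACGTG, which reads the same on both strands, lay in the windows of 10 members (10 of 37 windows), against 7.15% of all 32851 windows. The 10 were Atp6v0b, Atp6v0d1, Atp6v0e, Atp6v1a, Ctsa, Ctsd, Ctsf, Ctsl, Lamp1 and Mcoln1. TCACGTGA, which contains CACGTG and was counted within the same sites, lay in those of 6 (Atp6v0d1, Atp6v0e, Atp6v1a, Ctsa, Ctsd and Mcoln1), against 0.974% of all windows. A longer form of TCACGTGA, with a G added before it and a C after it, was also searched. It lay in the windows of 0 of the 31 members, against 0.326% of all windows. A separate element, TCATGTGA, searched on both strands and sharing no site with CACGTG, was in the windows of 2 members (Atp6v0c and Ctss) and in 0.986% of all windows. A match is a description of these letters only. Stretches around CACGTG are printed for the members with more than 1 copy in one stretch and for 4 more whose levels are described later, written on the strand of the gene with each CACGTG in capitals.
Ctsa chr2:164833746-164833797 (forward strand): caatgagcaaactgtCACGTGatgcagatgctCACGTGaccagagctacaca
Lamp1 chr8:13159085-13159166 (forward strand): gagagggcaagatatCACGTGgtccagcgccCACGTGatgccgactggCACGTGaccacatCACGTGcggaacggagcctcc
Mcoln1 chr8:3500433-3500494 (forward strand): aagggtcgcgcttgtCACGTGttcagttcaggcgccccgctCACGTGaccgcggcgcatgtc
Ctsd chr7:142387905-142387940 (reverse strand): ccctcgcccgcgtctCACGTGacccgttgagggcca
Atp6v1a chr16:44139370-44139405 (reverse strand): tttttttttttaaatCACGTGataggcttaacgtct
Atp6v0d1 chr8:105566047-105566082 (reverse strand): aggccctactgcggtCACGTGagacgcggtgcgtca
Ctsf chr19:4855071-4855106 (forward strand): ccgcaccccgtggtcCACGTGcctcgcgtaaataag
The Lamp1 stretch held 4 copies and the Ctsa and Mcoln1 stretches 2 each. The Ctsd window held a further copy at -245, in a separate stretch that is not printed. Counted from the start, the first copy shown began at -61 in Lamp1, -12 in Ctsa, -71 in Mcoln1, -98 in Ctsd, -131 in Atp6v1a, -3 in Atp6v0d1 and -79 in Ctsf.

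Levels per exon length ordered the members from rank 138 to rank 22826 of 24857 genes ranked. Ctsd was the highest at 113 CPM per kilobase of exon, followed by Atp6ap1 (63.5 CPM per kilobase), Ctsb (59.3) and Lamp1 (38.7). Lamp2 (31.2), Atp6v0a1 (30.2), Scarb2 (22.3) and Atp6v1e1 (21.9) came next. The lowest were Atp6v0a4 (0.361 CPM per kilobase, 2 to 22 counts a library), Atp6v1c2 (0.539, 2 to 13 counts), Atp6v1b1 (0.578, 2 to 32 counts) and Atp6v0d2 (1.06, 4 to 41 counts), 4 pump subunits for which another, more abundant gene encodes the same position. Neighbours in this order were often not separable, since the SD of log2 CPM within a group of 3 libraries ranged from 0.16 to 0.86 over the members, with a median of 0.34. Exons of 14 of the 40 members overlap an exon of another gene, and whether counting used the strand is not given in the sources used here, so reads of these genes may be shared: Atp6v0a2, Atp6v0a4, Atp6v0b, Atp6v1c2, Atp6v1e1, Atp6v1g2, Atp6v1h, Ctsa, Ctsb, Ctsd, Ctsl, Ctsw, Ctsz and Lamp1.

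**Figure D1:**
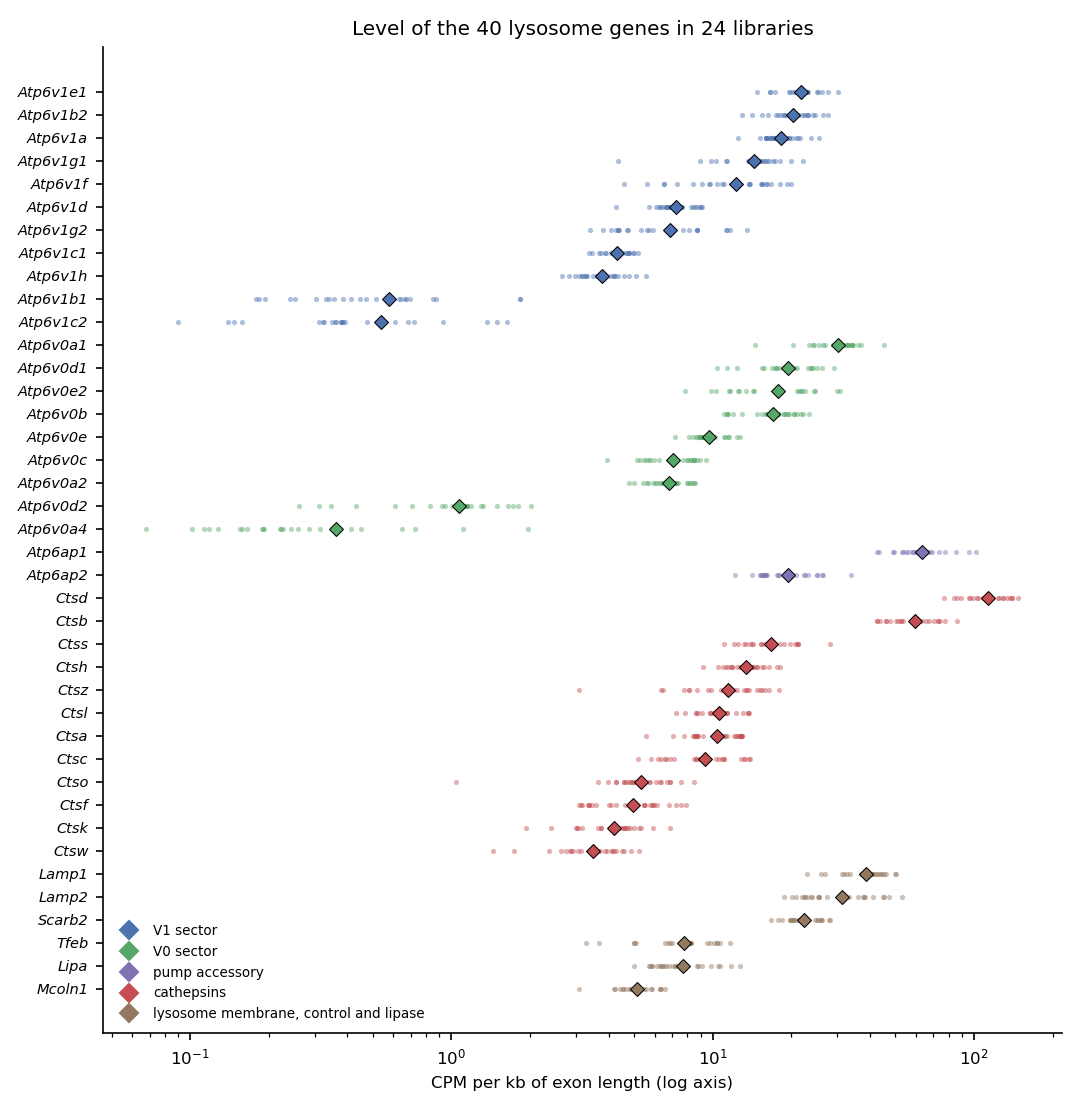
Level of each of the 40 members in CPM per kilobase of exon on a log axis. Small points show the 24 libraries and a diamond the mean, both coloured by role. Ctsd leads at 113 CPM per kilobase and Atp6v0a4 is last at 0.361, and the libraries of a gene spread more widely at the low end.

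The membrane and control genes were measured in every library, given here in the order of replicates 1, 2 and 3. Lamp1 (chr8:13159161-13175338, mm10) encodes a major glycoprotein of the lysosome membrane. Lamp1 read 135, 69.4 and 134 CPM at ZT1, 61.5, 89.4 and 83.7 at ZT7, 116, 99.8 and 114 at ZT13 and 85.2, 118 and 121 at ZT19 in the RPE Bmal1 WT libraries. Lamp1 in the RPE Bmal1 KO libraries read 109, 109.5 and 110.4 CPM at ZT1, 72.2, 87.7 and 103 at ZT7, 118, 106 and 113 at ZT13 and 124, 98.98 and 107 at ZT19. The lowest value was in WT ZT7 replicate 1 and the highest in WT ZT1 replicate 1, and the genotypes overlapped at all 4 time points. Lamp2 (chrX:38401357-38456454) encodes its partner glycoprotein, with a known role in autophagy. Lamp2 read 344, 359 and 427 CPM at ZT1, 209, 364 and 216 at ZT7, 364, 262 and 243 at ZT13 and 243, 394 and 214 at ZT19 in the RPE Bmal1 WT libraries. Lamp2 in the RPE Bmal1 KO libraries read 317, 220.2 and 192 CPM at ZT1, 508, 308 and 228 at ZT7, 433, 178 and 229 at ZT13 and 449.9, 199 and 242 at ZT19. At ZT1 every RPE Bmal1 KO library lay below every RPE Bmal1 WT library, while at the other time points the genotypes overlapped, and the highest of all was KO ZT7 replicate 1.

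Scarb2 (chr5:92441314-92506833) encodes LIMP-2, the carrier of glucocerebrosidase to the lysosome. Scarb2 read 163, 142 and 165 CPM at ZT1, 136, 177 and 125 at ZT7, 164, 142 and 135 at ZT13 and 136, 157 and 125 at ZT19 in the RPE Bmal1 WT libraries. Scarb2 in the RPE Bmal1 KO libraries read 131, 111 and 105 CPM at ZT1, 175, 138 and 129 at ZT7, 154, 116 and 127 at ZT13 and 159.7, 125 and 127 at ZT19. The 3 RPE Bmal1 KO libraries at ZT1 were all below those of RPE Bmal1 WT, and the lowest of the 24 was KO ZT1 replicate 3. Lipa (chr19:34492318-34527474) encodes lysosomal acid lipase. Lipa read 59.8, 61.6 and 71.2 CPM at ZT1, 33.8, 43.4 and 47.7 at ZT7, 58.8, 48.9 and 48.7 at ZT13 and 39.6, 66.8 and 42.9 at ZT19 in the RPE Bmal1 WT libraries. Lipa in the RPE Bmal1 KO libraries read 51.2, 44.3 and 38.7 CPM at ZT1, 72.6, 41.6 and 38.9 at ZT7, 86.2, 42.5 and 46.1 at ZT13 and 79.6, 39.6 and 44.8 at ZT19. The genotypes were apart at ZT1 only, with RPE Bmal1 KO lower, and the highest value, in KO ZT13 replicate 1, came from 1 of the 5 receptor-rich libraries.

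Tfeb (chr17:47737030-47792419) encodes the transcription factor that binds the CLEAR element. Tfeb read 55.5, 45.8 and 39.5 CPM at ZT1, 46.3, 46.7 and 43.6 at ZT7, 57.5, 28.8 and 65.8 at ZT13 and 53.9, 38.4 and 60.5 at ZT19 in the RPE Bmal1 WT libraries. Tfeb in the RPE Bmal1 KO libraries read 28.4, 38.9 and 37.3 CPM at ZT1, 18.5, 45.2 and 43.3 at ZT7, 28.5, 46.4 and 58.7 at ZT13 and 20.9, 47.00 and 58.9 at ZT19. At ZT1 the RPE Bmal1 KO libraries lay below those of RPE Bmal1 WT, and the lowest value was in KO ZT7 replicate 1. Mcoln1 (chr8:3500457-3515232), the calcium channel, had similar group means. Mcoln1 read 39.6, 37.6 and 41.8 CPM at ZT1, 23.2, 37.7 and 48.1 at ZT7, 38.9, 47.4 and 39.4 at ZT13 and 31.6, 44.1 and 36.5 at ZT19 in the RPE Bmal1 WT libraries. Mcoln1 in the RPE Bmal1 KO libraries read 35.1, 36.3 and 47.6 CPM at ZT1, 34.3, 33.5 and 40.1 at ZT7, 32.1, 49.4 and 41.3 at ZT13 and 39.1, 43.7 and 34.4 at ZT19. Its genotypes overlapped at every time point, and the lowest value was again in WT ZT7 replicate 1.

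Ctsd (chr7:142375911-142388038), the aspartic protease known for the digestion of outer segment proteins in the RPE, overlaps the gene model Gm49369 on the same strand. Ctsd read 329, 303 and 257 CPM at ZT1, 269.9, 266 and 329 at ZT7, 255, 197 and 316 at ZT13 and 179.97, 259.9 and 348 at ZT19 in the RPE Bmal1 WT libraries. Ctsd in the RPE Bmal1 KO libraries read 209, 294 and 226 CPM at ZT1, 225, 244 and 291 at ZT7, 203, 272 and 304 at ZT13 and 232, 242 and 323 at ZT19. Both the lowest and the highest value came from RPE Bmal1 WT at ZT19, so the spread within one group was as wide as that over all libraries. Ctsb (chr14:63122462-63145923) encodes a cysteine protease. Ctsb read 397, 319 and 449 CPM at ZT1, 304, 382 and 373 at ZT7, 425, 311 and 319 at ZT13 and 265, 442 and 369.9 at ZT19 in the RPE Bmal1 WT libraries. Ctsb in the RPE Bmal1 KO libraries read 359, 288 and 279 CPM at ZT1, 468, 279 and 324 at ZT7, 443, 258 and 365 at ZT13 and 521, 259 and 408 at ZT19. The RPE Bmal1 KO libraries held both extremes, in KO ZT13 replicate 2 and KO ZT19 replicate 1, and the genotypes of Ctsd and Ctsb overlapped at all time points.

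Ctss (chr3:95526786-95556403), a cysteine protease known from macrophages and antigen-presenting cells, and Ctsf (chr19:4855130-4860918), a papain-family cysteine protease, were the cathepsins among the 2 members with the smallest p-value in at least 1 of the tests over time. Ctss read 24.5, 28.7 and 21.3 CPM at ZT1, 38.3, 22.7 and 22.96 at ZT7, 14.99, 16.4 and 28.7 at ZT13 and 25.6, 26.9 and 17.9 at ZT19 in the RPE Bmal1 WT libraries. Ctss in the RPE Bmal1 KO libraries read 18.8, 19.2 and 17.04 CPM at ZT1, 22.2, 19.4 and 22.4 at ZT7, 20.8, 18.3 and 22.3 at ZT13 and 28.1, 20.7 and 28.9 at ZT19. The RPE Bmal1 KO libraries of Ctss lay below those of RPE Bmal1 WT at ZT1 and at ZT7, and the highest value was in WT ZT7 replicate 1. Ctsf read 20.5, 15.97 and 15.6 CPM at ZT1, 16.9, 16.8 and 29.4 at ZT7, 27.7, 36.5 and 29.9 at ZT13 and 18.05, 16.9 and 29.04 at ZT19 in the RPE Bmal1 WT libraries. Ctsf in the RPE Bmal1 KO libraries read 20.3, 29.98 and 38.2 CPM at ZT1, 15.7, 23.3 and 30.8 at ZT7, 21.4, 39.8 and 34.3 at ZT13 and 17.4, 27.6 and 27.6 at ZT19. RPE Bmal1 WT at ZT1 was the lowest group of Ctsf, but 1 of its libraries overlapped those of RPE Bmal1 KO at ZT1.

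Among the accessory genes, Atp6ap1 (chrX:74297097-74304721) encodes Ac45, a V0-associated glycoprotein that helps pump assembly, and Atp6ap2 (chrX:12587801-12617049) encodes a protein also known as the prorenin receptor. Atp6ap1 read 208, 177 and 308 CPM at ZT1, 131, 176 and 166 at ZT7, 234, 202 and 184 at ZT13 and 148, 198 and 183 at ZT19 in the RPE Bmal1 WT libraries. Atp6ap1 in the RPE Bmal1 KO libraries read 184, 169 and 161 CPM at ZT1, 222, 129 and 179.7 at ZT7, 258, 150.02 and 185 at ZT13 and 289.96, 161 and 205 at ZT19. Values of Atp6ap1 were highest in WT ZT1 replicate 3 and lowest in KO ZT7 replicate 2, with overlap between genotypes throughout. Atp6ap2 read 60.6, 69.4 and 68.7 CPM at ZT1, 40.1, 54.4 and 39.9 at ZT7, 52.6, 46.2 and 46.5 at ZT13 and 37.1, 58.8 and 41.9 at ZT19 in the RPE Bmal1 WT libraries. Atp6ap2 in the RPE Bmal1 KO libraries read 46.99, 39.8 and 41.1 CPM at ZT1, 88.7, 58.6 and 42.4 at ZT7, 65.6, 31.8 and 41.6 at ZT13 and 65.6, 40.9 and 41.5 at ZT19. Atp6ap2 was lower in every RPE Bmal1 KO library than in every RPE Bmal1 WT library at ZT1, and its highest value was in KO ZT7 replicate 1, a receptor-rich library.

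In the V1 sector, Atp6v1e1 (chr6:120794305-120822793) encodes the E subunit of the peripheral stalks, and was the V1 gene with the highest level per exon length. Atp6v1e1 read 108, 87.1 and 94.1 CPM at ZT1, 60.6, 83.1 and 93.03 at ZT7, 86.2, 81.5 and 94.6 at ZT13 and 71.2, 88.7 and 114 at ZT19 in the RPE Bmal1 WT libraries. Atp6v1e1 in the RPE Bmal1 KO libraries read 68.01, 90.1 and 68.3 CPM at ZT1, 103, 80.6 and 94.8 at ZT7, 104, 88.1 and 93.2 at ZT13 and 124, 84.7 and 94.7 at ZT19. The genotypes overlapped at every time point. Atp6v1h (chr1:5070018-5162529) encodes the H subunit, which holds the released V1 sector inactive. Atp6v1h read 31.8, 53.9 and 37.9 CPM at ZT1, 25.8, 28.98 and 30.9 at ZT7, 40.9, 41.3 and 33.8 at ZT13 and 27.6, 44.5 and 29.9 at ZT19 in the RPE Bmal1 WT libraries. Atp6v1h in the RPE Bmal1 KO libraries read 35.9, 30.9 and 36.2 CPM at ZT1, 49.6, 42.3 and 40.4 at ZT7, 39.5, 32.1 and 31.5 at ZT13 and 46.8, 35.2 and 35.3 at ZT19. Its RPE Bmal1 KO libraries were all above those of RPE Bmal1 WT at ZT7 and overlapped them elsewhere. Atp6v1b1 (chr6:83742990-83758855) encodes the B1 isoform of the ATP-binding B subunit, known from kidney and inner ear. Atp6v1b1 read 2.07, 2.92 and 2.93 CPM at ZT1, 8.02, 2.25 and 2.75 at ZT7, 1.48, 3.04 and 0.851 at ZT13 and 8.02, 2.52 and 1.56 at ZT19 in the RPE Bmal1 WT libraries. Atp6v1b1 in the RPE Bmal1 KO libraries read 3.71, 1.69 and 2.82 CPM at ZT1, 0.806, 1.06 and 1.11 at ZT7, 3.82, 1.45 and 1.33 at ZT13 and 0.785, 1.80 and 1.95 at ZT19. Values were highest in WT ZT7 replicate 1 and WT ZT19 replicate 1, both at 8.02 CPM. Both libraries were rich in olfactory and vomeronasal receptor counts (2046 and 3470.4 CPM). For Atp6v1b1 every RPE Bmal1 KO library was below every RPE Bmal1 WT library at ZT7.

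In the V0 sector, Atp6v0a1 (chr11:101009452-101063719) encodes the proton-channel isoform a1 and led its sector per exon length. Atp6v0a1 read 205, 196 and 215 CPM at ZT1, 95.3, 189.6 and 295 at ZT7, 176, 227 and 224 at ZT13 and 167, 160.5 and 235 at ZT19 in the RPE Bmal1 WT libraries. Atp6v0a1 in the RPE Bmal1 KO libraries read 153, 205 and 224 CPM at ZT1, 173, 214 and 212 at ZT7, 158, 242 and 217 at ZT13 and 133, 222 and 207 at ZT19. Its lowest and highest values both came from RPE Bmal1 WT at ZT7. Atp6v0e2 (chr6:48537615-48541801) encodes an isoform of the small e subunit. Atp6v0e2 read 42.03, 27.8 and 30.1 CPM at ZT1, 18.7, 34.4 and 33.8 at ZT7, 41.7, 58.4 and 41.7 at ZT13 and 23.6, 31.9 and 52.4 at ZT19 in the RPE Bmal1 WT libraries. Atp6v0e2 in the RPE Bmal1 KO libraries read 42.04, 51.8 and 72.9 CPM at ZT1, 24.6, 29.6 and 58.6 at ZT7, 27.6, 71.5 and 51.1 at ZT13 and 42.5, 53.9 and 50.04 at ZT19. The 3 RPE Bmal1 KO libraries at ZT1 were above those of RPE Bmal1 WT, but replicate 1 was almost tied between them (42.04 against 42.03 CPM). The genotypes overlapped at the other time points. Atp6v0d2 (chr4:19876841-19922605) encodes the d2 isoform, known from osteoclasts. Atp6v0d2 read 3.58, 2.58 and 3.08 CPM at ZT1, 4.45, 2.25 and 4.90 at ZT7, 1.65, 0.846 and 1.91 at ZT13 and 3.51, 4.06 and 3.12 at ZT19 in the RPE Bmal1 WT libraries. Atp6v0d2 in the RPE Bmal1 KO libraries read 3.21, 2.73 and 1.18 CPM at ZT1, 2.82, 0.706 and 3.12 at ZT7, 4.67, 0.939 and 2.94 at ZT13 and 5.49, 2.49 and 3.13 at ZT19. The RPE Bmal1 WT libraries at ZT13 were low, and the genotypes overlapped at all time points. Of 7 osteoclast markers, 6 passed the count filter, with a low list mean of 1.59 log2 CPM over all libraries. All 7 together summed to 47.0 to 121 CPM.

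**Figure D2:**
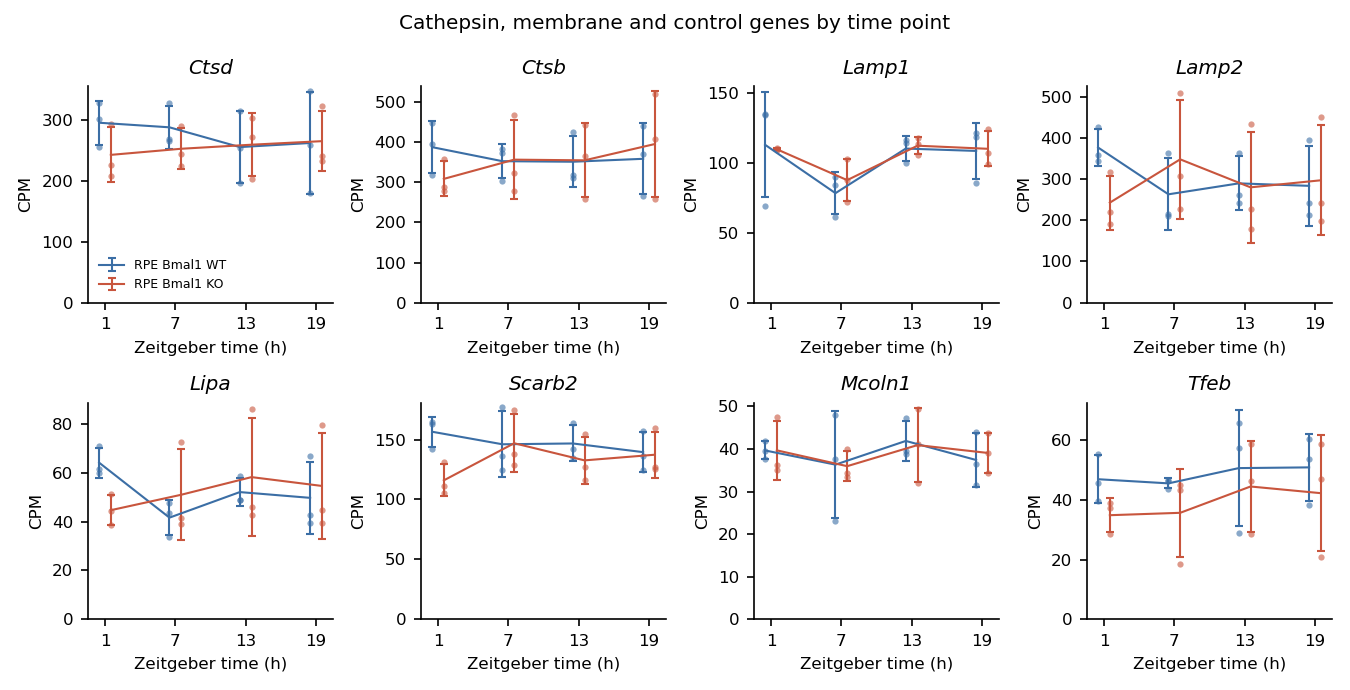
CPM of 8 members against ZT (hours) in both genotypes, with a point for each library, a line through the group means and error bars of 1 SD (n = 3). The points of the genotypes overlap at most times, with RPE Bmal1 KO below RPE Bmal1 WT at ZT1 for Lamp2, Scarb2, Lipa and Tfeb.

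No member changed over the day past the threshold, an adjusted p under 0.05 (Benjamini-Hochberg over 24965 genes, edgeR quasi-likelihood test). In RPE Bmal1 WT the test called 0 of 40 members, where 0% of all genes passed. At an unadjusted p under 0.05 there were 2 members (Atp6v0d2 and Ctsf), against 2.47% of all genes. In RPE Bmal1 KO the test again called 0 members (0.00801% of all genes, 2 genes) and 0 at an unadjusted p under 0.05, where 2.06% of genes stood. Over both genotypes together it called 0 members (0.0361% of genes, 9 genes), and 1, Lamp1, was at an unadjusted p under 0.05 (3.11% of genes). The test of a different time course between genotypes called 0 members and 0% of genes, and had 1 member, Atp6v1h, at an unadjusted p under 0.05 (2.06% of genes). DESeq2, limma-trend and the linear model fitted to unlogged CPM also called 0 members in each of these 4 tests.

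The members with the smallest p-values over time differed by these amounts, beside a median SD within groups of 0.34. Atp6v0d2 differed by 1.22 on the log2 scale between its highest time point in RPE Bmal1 WT, ZT7, and its lowest, ZT13. Ctsf differed by 0.85 between ZT13 and ZT1 in RPE Bmal1 WT, and by 0.53 over both genotypes. In RPE Bmal1 KO the smallest p-values were those of Atp6v1b1 (log2 range 1.23, ZT1 high and ZT7 low) and Ctss (0.47, ZT19 high and ZT1 low). Lamp1 ranged over 0.44 across both genotypes, from ZT7 to ZT13, and over 0.27 without the 5 receptor-rich libraries. For the difference in time course, Atp6v1h had a range of 0.85 in its KO minus WT difference (ZT7 high, ZT1 low), and Atp6ap2 of 1.08. The adjusted p rounded to 1.00 for every member in all 4 tests over time.

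The median member ranged over 0.42 on the log2 scale between its highest and lowest time-point mean in RPE Bmal1 WT, where the median of all genes tested was 0.54. The same medians were 0.38 and 0.47 in RPE Bmal1 KO and 0.26 and 0.35 over both genotypes. As folds between the means of CPM, 29 of 40 members were under 1.5 in RPE Bmal1 WT (median 1.36) and 33 of 40 in RPE Bmal1 KO (median 1.29). The widest was the low gene Atp6v0a4, 6.60-fold in RPE Bmal1 WT, with its highest value in WT ZT7 replicate 1. In RPE Bmal1 WT 17 of 40 members had their highest mean at ZT1, against 21.3% of all genes, among them Lamp2, Scarb2, Lipa, Ctsd, Ctsb, Atp6v1a and both accessory genes. The lowest mean fell at ZT7 for 22 of 40 members, against 31.8% of all genes. Without WT ZT7 replicate 1 that count was 12 of 40, so it rested on that one small library. In RPE Bmal1 KO 14 of 40 members had the highest mean at ZT19 (20.6% of genes), and the lowest fell at ZT7 for 18 (31.9% of genes) and at ZT1 for 16 (28.4%).

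Between genotypes, no member differed past the threshold in the average over time points. The edgeR test called 0 of 40 members and 0% of all genes, as did DESeq2, limma-trend and the linear model. At an unadjusted p under 0.05 there were 2 members, against 6.34% of genes. Atp6v0e2 was higher in the libraries labelled RPE Bmal1 KO by 0.40 ± 0.18 (SE) on the log2 scale (edgeR adjusted p = 0.765). Atp6v1b1 was lower by the fitted value -0.71 ± 0.32 (SE) (edgeR adjusted p = 0.765), and its highest values were in 2 of the receptor-rich RPE Bmal1 WT libraries. Its fitted difference was -0.53 without the 5 receptor-rich libraries and -0.46 without WT ZT19 replicate 1 alone. Over the 40 members 17 were higher and 23 lower in RPE Bmal1 KO, with a median of -0.02, beside 41.5% higher and a median of -0.04 for all genes. This split depended on scaling: with library size alone in place of TMM (trimmed mean of M values), the median of all genes moved to 0.16, 76.8% of genes were higher, and so were 37 of 40 members (median 0.18).

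At ZT1, the time closest to the uptake of outer segments, the edgeR test called 0 of 40 members and 0% of all genes. DESeq2, limma-trend and the linear model also called 0 members. At an unadjusted p under 0.05 there were 4 members, close to the 9.99% of all genes: Ctsf, Atp6ap2, Scarb2 and Ctso. Ctsf was higher in the libraries labelled RPE Bmal1 KO, at 29.5 ± 8.97 CPM (SD, n = 3) against 17.4 ± 2.76 CPM (SD, n = 3) (log2 difference 0.77 ± 0.31 (SE), edgeR adjusted p = 0.395). Atp6ap2 was lower, at 42.7 ± 3.81 CPM (SD, n = 3) against 66.2 ± 4.86 CPM (SD, n = 3) (-0.64 ± 0.28 (SE), edgeR adjusted p = 0.440). Scarb2 stood at 116 ± 13.4 CPM (SD, n = 3) against 157 ± 12.7 CPM (SD, n = 3) (-0.43 ± 0.19 (SE), edgeR adjusted p = 0.440). Ctso, a cysteine cathepsin, stood at 21.7 ± 3.02 CPM (SD, n = 3) against 36.5 ± 2.11 CPM (SD, n = 3) (-0.75 ± 0.34 (SE), edgeR adjusted p = 0.458). None of the 4 kept its unadjusted p under 0.05 without WT ZT1 replicate 3 or without KO ZT1 replicate 3, where the count of members at that level was 0.

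By separation of the libraries, 10 of 40 members had every RPE Bmal1 KO library below every RPE Bmal1 WT library at ZT1, against 10.9% of all genes, and 1, Atp6v0e2, had every RPE Bmal1 KO library above, against 9.84% of genes. The 10 were Lamp2, Scarb2, Tfeb and Lipa of the membrane and control set, Ctso, Ctsc and Ctss of the cathepsins, Atp6ap2, and the V1 genes Atp6v1a (the catalytic A subunit) and Atp6v1d (the central stalk). Ctso read 35.3, 35.2 and 38.9 CPM in the RPE Bmal1 WT libraries at ZT1 and 24.7, 21.8 and 18.7 in the RPE Bmal1 KO libraries. Ctsc read 63.1, 64.2 and 61.6 CPM in the RPE Bmal1 WT libraries at ZT1 and 51.7, 38.3 and 35.7 in the RPE Bmal1 KO libraries. Ctsc encodes dipeptidyl peptidase I, and its groups were separated by less than the spread within RPE Bmal1 KO. Atp6v1d read 35.00, 39.5 and 35.1 CPM in the RPE Bmal1 WT libraries at ZT1 and 26.2, 28.8 and 28.7 in the RPE Bmal1 KO libraries. Atp6v1a read 119, 122 and 126 CPM in the RPE Bmal1 WT libraries at ZT1 and 104, 96.3 and 104 in the RPE Bmal1 KO libraries. Both V1 genes differed little in absolute level, with log2 differences of -0.39 ± 0.20 (SE) and -0.27 ± 0.20 (SE). The differences of the others were -0.63 ± 0.37 (SE) for Lamp2, -0.52 ± 0.30 (SE) for Lipa, -0.44 ± 0.25 (SE) for Ctss, -0.59 ± 0.34 (SE) for Ctsc and -0.43 ± 0.36 (SE) for Tfeb, all with an adjusted p above 0.526. Over the 33 edgeR, DESeq2 and limma settings with a log2 difference, 9 of the 10 were lower in every setting, and Atp6v1a was 0.04 with library size alone. Lamp2 lay between -0.87 to -0.32, Atp6ap2 between -0.71 to -0.33 and Ctso between -0.85 to -0.43 over these settings.

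By role, the membrane and control set was lower for 5 of 6 genes at ZT1 (median log2 difference -0.43), the accessory genes for 2 of 2 (-0.53) and the cathepsins for 9 of 12 (-0.17). The V1 sector was lower for 6 of 11 (-0.08) and the V0 sector for 4 of 9 (0.03). Over all 40 members 14 were higher and 26 lower with a median of -0.13, beside 48.7% of all genes higher and a median of -0.02. With library size alone the median of all genes at ZT1 moved to 0.30 and that of the members to 0.19, with 26 members higher, so the members stayed below the median of all genes under both scalings while their own split turned. Of the 10 members with CACGTG in a start window, 6 were lower and 4 higher at ZT1 (median -0.03), and of the 21 other members with a window, 12 were lower and 9 higher (median -0.35).

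**Figure D3:**
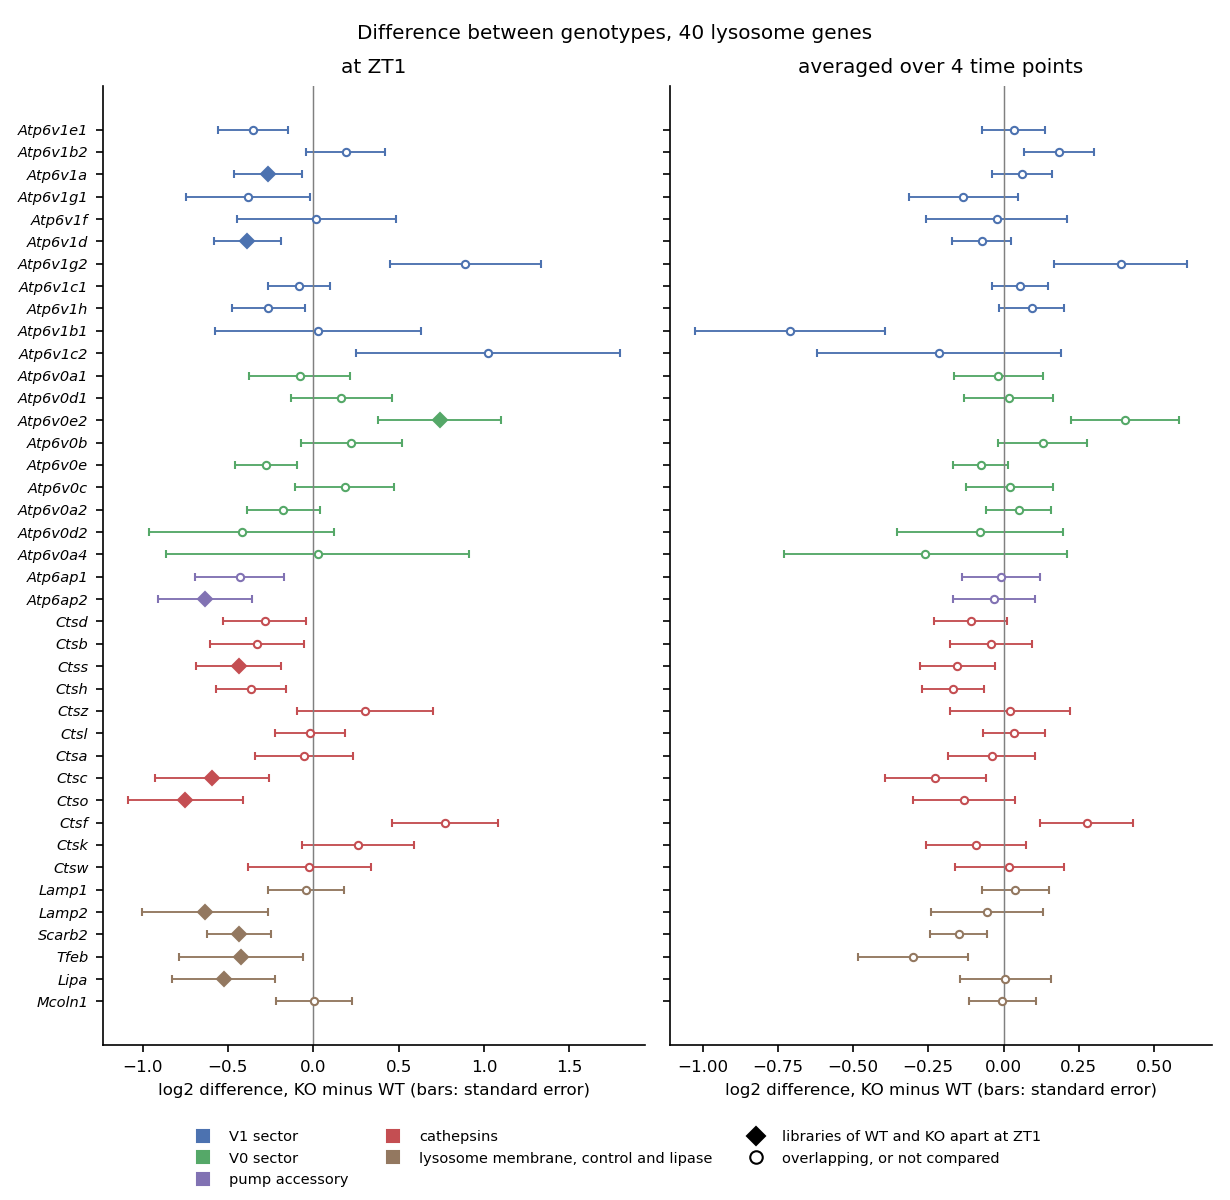
Log2 difference (KO minus WT) for each of the 40 members, at ZT1 on the left and averaged over 4 time points on the right, with bars of 1 standard error and colours for the role. Filled diamonds mark the 11 members whose libraries do not overlap between genotypes at ZT1, 10 of them to the left of 0. For the other, Atp6v0e2, the nearest libraries were almost tied. Most differences in the average lie closer to 0, Atp6v1b1 excepted.

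Markers of other tissues also stood apart between the genotype labels at ZT1. All 12 rod markers were higher in RPE Bmal1 KO at ZT1 (median log2 difference 2.58, 0 past the adjusted threshold in the edgeR test and 12 at an unadjusted p under 0.05). The mean of the list was 4.81 to 5.81 log2 CPM in the RPE Bmal1 WT libraries and 7.15 to 8.52 in the RPE Bmal1 KO libraries. All 11 skeletal muscle markers were lower (median -1.65), and the list mean was 7.25 to 9.56 log2 CPM in RPE Bmal1 WT and 6.33 to 6.85 in RPE Bmal1 KO. The lens list had a larger median difference than the rod list (4.29), with 12 of 12 markers higher in RPE Bmal1 KO, 0 past the adjusted threshold in the edgeR test and 11 at an unadjusted p under 0.05. Its mean was 1.83 to 3.60 log2 CPM in RPE Bmal1 WT and 1.73 to 7.49 in RPE Bmal1 KO, where replicates 2 and 3 were high and replicate 1 was not. Endothelial markers were lower for 8 of 10 (median -0.43, 1 at an unadjusted p under 0.05). The RPE list of 15 genes was between 6.59 and 6.68 log2 CPM in RPE Bmal1 WT and 6.38 and 6.63 in RPE Bmal1 KO. Macrophage markers, of which 12 of 12 were measured, summed to 183 to 206 CPM and 169.9 to 199 CPM. The part of these tissues in the differences of the members was not tested beyond the correlations that follow.

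Each member was set beside the mean of 5 marker lists over the 24 libraries, 200 relations in all, by permutation tests with 100000 resamples and Benjamini-Hochberg adjustment. Pearson and Spearman tests both passed for 20 relations: 10 with the rod list, 5 with fibroblast, 3 with RPE, 2 with skeletal muscle and 0 with macrophage. The share of all genes that would pass with each list was not computed, so whether these counts are particular to the members was not tested. Atp6v0e2 rose with the rod list (r = 0.86, rho = 0.87), as did Ctsf (0.82 and 0.80) and Atp6v1g2, a G subunit isoform known from neurons (0.81 and 0.77). Atp6v1b2, the common B subunit, had r = 0.71 and rho = 0.74, Atp6v0d1 0.67 and 0.66 and Mcoln1 0.59 and 0.56. Ctsc ran opposite to the rod list (r = -0.82, rho = -0.79), followed by Scarb2 (-0.75 and -0.71), Lamp2 (-0.63 and -0.60) and Ctss (-0.57 and -0.56). The adjusted Pearson p was 0.0005 for the largest of these, the smallest the resampling could give after adjustment. Of the members that were apart between genotypes at ZT1, Atp6v0e2, Ctsc, Scarb2, Lamp2 and Ctss were thus among those related to the rod list, each in the direction of its difference at ZT1. Tfeb, Lipa, Ctso, Atp6v1a and Atp6v1d were not among them, and Atp6ap2 passed the Pearson test alone (r = -0.61, adjusted p = 0.018, against 0.0902 for rho).

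**Figure D4:**
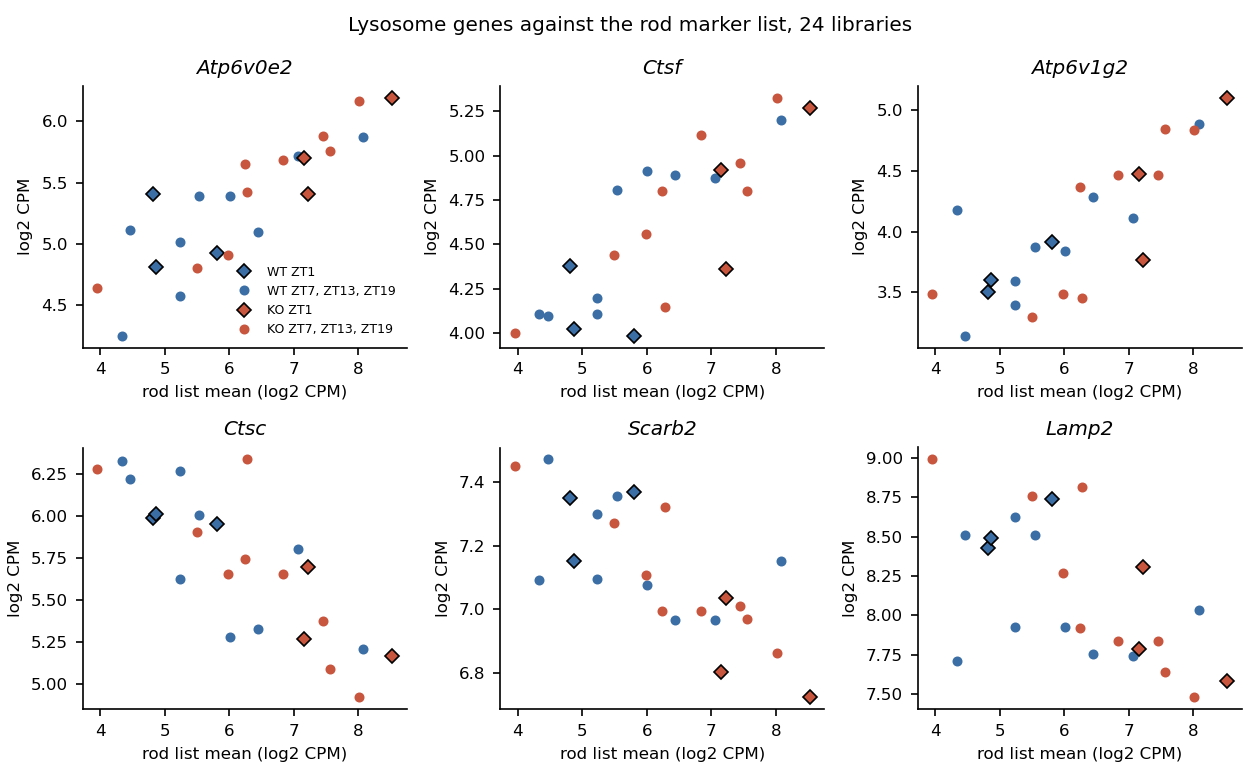
Log2 CPM of members against the mean log2 CPM of the 12 rod markers in each of the 24 libraries, coloured by genotype, with diamonds for ZT1 and circles for the other time points. Atp6v0e2 and Ctsf rise and Ctsc and Scarb2 fall along the rod axis, and the RPE Bmal1 KO libraries at ZT1 lie at its high end, between 7.15 and 8.52.

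The RPE list rose with Atp6v0d1 (r = 0.71, rho = 0.69), Atp6v0a1 (0.64 and 0.55) and Ctsl (0.59 and 0.55). With the fibroblast list, Ctsc had r = 0.62, whereas Atp6v0b (-0.62), Atp6v0a1 (-0.61), Ctsf (-0.61) and Atp6v1b2 (-0.56) ran the other way. Ctsd (r = 0.62, rho = 0.64) and Tfeb (0.61 and 0.69) rose with skeletal muscle, the list that was lower in RPE Bmal1 KO at ZT1. All 20 relations kept their sign and |r| of at least 0.4 without the 2 libraries farthest from the median of the list, and also within the 19 libraries poor in receptor counts. For the rod list these 2 were KO ZT1 replicate 3 and KO ZT7 replicate 1, and r without them was 0.82 for Atp6v0e2, 0.78 for Ctsf, 0.77 for Atp6v1g2, -0.78 for Ctsc, -0.65 for Scarb2 and -0.52 for Lamp2. Within the 19 libraries these values were 0.84, 0.82, 0.92, -0.80, -0.78 and -0.77. On deviations from the 8 group means, 19 of the 20 passed, and Ctss with the rod list did not (adjusted p = 0.0698).

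**Figure D5:**
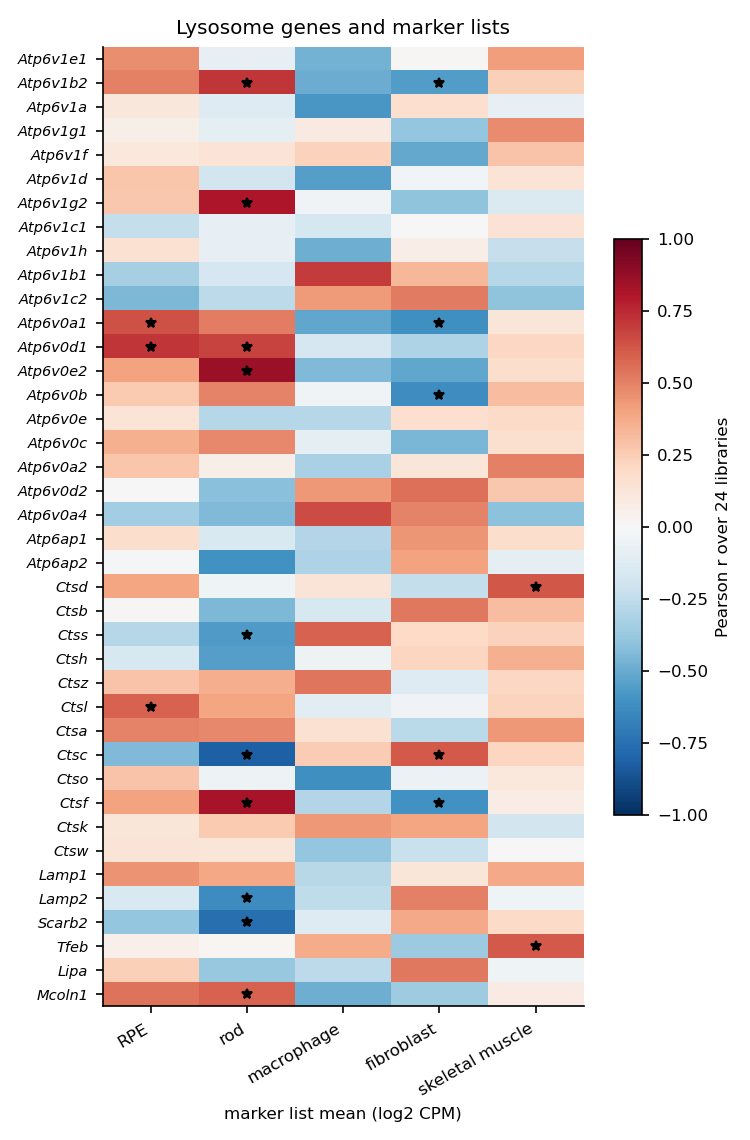
Pearson r over 24 libraries between each of the 40 members (rows) and the mean log2 CPM of 5 marker lists (columns), on a colour scale from -1 to 1. Stars mark the 20 relations in which Pearson and Spearman tests both passed, 10 of them in the rod column and 0 in the macrophage column.

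Subunits coded by more than 1 gene were compared within each library as shares of their summed CPM per kilobase of exon. Atp6v1b1 made up 3.05% of the B subunit level and Atp6v0d2 5.57% of the d subunit level on average. Atp6v1c2 made up 10.8% of the C subunit. Atp6v0a1 made up 80.3% of the summed level of Atp6v0a1, Atp6v0a2 and Atp6v0a4, the a subunit genes among the members. The a subunit gene Tcirg1 does not match the naming rule and was not counted. Genes under the level limit, such as Atp6v1g3, were not counted either. These shares are thus corrected for exon length. Atp6v1g2 made up 32.3% of the G subunit, from 17.2% to 54.97%, and at ZT1 45.9% ± 10.8 (SD, n = 3) in RPE Bmal1 KO against 25.8% ± 10.5 in RPE Bmal1 WT. Atp6v0e2 made up 63.0% of the e subunit, from 47.8% to 78.7%, and at ZT1 71.2% ± 5.39 in RPE Bmal1 KO against 55.5% ± 8.88 in RPE Bmal1 WT. For Atp6v0e2 the 3 RPE Bmal1 KO libraries (67.8% to 77.4%) lay above the 3 of RPE Bmal1 WT (47.8% to 65.2%), and for Atp6v1g2 the groups overlapped. Both isoforms belong to the members most related to the rod list.

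Some members moved together across the libraries, in 780 pairwise relations computed after the values were seen. The share of pairs that would pass among other genes was not computed, so whether such relations are particular to the members was not tested. In 178 pairs Pearson and Spearman permutation tests both passed after adjustment, 121 positive and 57 negative, and 159 of them kept their sign and |r| of at least 0.4 without the 2 farthest libraries and within the 19 receptor-poor ones. Lamp2 formed a block with Atp6ap2 (r = 0.93, rho = 0.88), Scarb2 (0.88 and 0.89) and Lipa (0.86 and 0.83), and ran opposite to Ctsz (-0.78 and -0.83). Atp6v0e2 went with Atp6v1b2 (0.89 and 0.88), Ctsb with Atp6ap1 (0.83 and 0.86) and Atp6v0b with Atp6v1f (0.80 and 0.75). Ctsc and Ctsf were opposed (-0.83 and -0.81). For the pairs with the largest r, the adjusted p was 0.00039 for Pearson and 0.000487 for Spearman, the smallest that could be reached. Lamp1 and Lamp2, which encode related membrane proteins, had r = 0.10 (p = 0.628, permutation test, adjusted p = 0.751). In the RPE Bmal1 KO libraries, replicate 1 was the highest of the 3 at each of the 4 time points for 8 members (Lamp2, Atp6ap2, Scarb2, Lipa, Ctso, Ctsc, Ctsb and Atp6ap1), and for 13.4% of all genes, and 3 of those 4 libraries are receptor-rich. These correlations share library, depth and tissue mixture.

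The wider pathway gave 0 calls in the edgeR test in each of 7 further lists and 6 tests, where calls by the other tools were counted for the 40 members only. Over all genes at ZT1, 9.99% were at an unadjusted p under 0.05 and 48.7% were higher in RPE Bmal1 KO, and most of the counts of the lists at that p lay near or below the first share. Of 38 other lysosomal hydrolases, 25 were lower in RPE Bmal1 KO at ZT1 (median -0.10, 1 at an unadjusted p under 0.05). Gm2a, the activator of ganglioside breakdown, had the smallest p of the list (log2 difference -0.65, adjusted p = 0.343). Of 27 other lysosome membrane genes 17 were lower (median -0.07), 1 at an unadjusted p under 0.05, Laptm4a at -0.50 (adjusted p = 0.362). Of 13 genes for assembly and other pump functions 7 were higher (median 0.10, 2 at an unadjusted p under 0.05), with the smallest p for Dmxl2, which encodes a rabconnectin that binds the pump (0.70, adjusted p = 0.443). Of 20 genes for sorting to the lysosome 11 were lower (median -0.07, 2 at an unadjusted p under 0.05), with the smallest p for Gnptab, which makes the mannose 6-phosphate tag (-0.38, adjusted p = 0.434). Of 18 control genes 11 were lower (median -0.20, 2 at an unadjusted p under 0.05), Lamtor1 with the smallest p (-0.60, adjusted p = 0.448). Of 7 cathepsin inhibitors 5 were lower (median -0.10, 0 at an unadjusted p under 0.05), Serpinb6a with the smallest p (-0.41, adjusted p = 0.639). Phagosome maturation genes were lower for 17 of 21 (median -0.28), 4 at an unadjusted p under 0.05, of which 3 lower and 1 higher. Atg5, an autophagy gene that also acts in the uptake of outer segments, had the smallest p of that list (-0.54, adjusted p = 0.343).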

How the data were processed

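RNA from RPE isolates of 24 mice was sequenced as paired-end reads. The deposited table holds raw counts per Ensembl gene: by the study's methods and the submitters' processing notes, the authors mapped reads to mm10 with Bowtie2 (2.3.4 in the notes, another version in the methods) and counted uniquely mapped reads with HTSeq (0.9.1). Strand use is not given in the sources used here. 24 columns were used, matched to samples by diet, time and replicate number, and 11 further columns were not. Of 53700 identifiers, 52147 matched GENCODE M21 and 1553 did not.

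Counts were tested with edgeR 4.0.16 (R 4.3.3; TMM scaling, filterByExpr with a minimum count of 10, quasi-likelihood F-test) over 24965 genes, with Benjamini-Hochberg adjustment and a threshold of 0.05. CPM are TMM-scaled, with a prior count of 2 on the log2 scale. Levels between genes are per kilobase of merged exons. DESeq2 1.42.0, limma 3.58.1 (limma-trend), a linear model on unlogged CPM, other scalings and filters, the replicate block and leaving out libraries were alternatives. The test of the genotype average and the permutation test of correlations were checked on simulated data. The simulated counts had the same relative spread for every gene and no mixture of tissues. The tests over time and the test at ZT1 were not checked in this way. Replicates are separate mice.

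Values in every library were given for Ctsd, Ctsb, Lamp1, Lamp2, Lipa, Tfeb, Mcoln1, Scarb2, the member with the highest level per exon length in each role, and the 2 members with the smallest unadjusted p in each test. Members, gene lists and the group of 5 receptor-rich libraries were chosen with earlier results of these data known. Values of 4 more members at ZT1, pairs of members and the comparison of replicates were chosen after their values were seen.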

Additional observations from a re-analysis of the deposited data

How the results depend on the processing

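The 525 recomputed values covered the counts of members called, the differences of the 2 members with the smallest p in each test and the count of marker relations. All the differences kept their direction and their side of the threshold, and the count of members called was 0 under every alternative. Among the marker relations, 1, Ctss with the rod list, did not pass on deviations from the group means. Direction could not change under the linear model, nor in the tests over time under DESeq2, limma-trend or the replicate block. There it was read from the same scaled log2 CPM as in the main test. The linear model itself used CPM scaled by library size, and its own estimates were higher in RPE Bmal1 KO for 37 of 40 members in the average. Other values moved. With library size alone the members higher in RPE Bmal1 KO went from 14 to 26 at ZT1 (median -0.13 to 0.19) and from 17 to 37 in the average (median -0.02 to 0.18), and Atp6v1a at ZT1 went from -0.27 to 0.04. The members lowest at ZT7 in RPE Bmal1 WT went from 22 to 12 without WT ZT7 replicate 1. For KO minus WT at ZT1 the members at an unadjusted p under 0.05 numbered 4, between 2 and 10 under other settings (10 without the 5 receptor-rich libraries, 6 with DESeq2) and between 0 and 7 when each library was left out (0 without WT ZT1 replicate 3 or KO ZT1 replicate 3, 1 without KO ZT1 replicate 2, 7 without KO ZT13 replicate 1). For the average over time points they numbered 2, between 2 and 10 and between 0 and 5. With the replicate block they numbered 3, 3, 2, 2, 2 and 8 for time in RPE Bmal1 WT, time in RPE Bmal1 KO, time over both genotypes, time course, average and ZT1, against 2, 0, 1, 1, 2 and 4 without it, and members called stayed at 0 in all 6. The replicate block raised the genes called over time in RPE Bmal1 KO from 2 to 46. Same-numbered libraries had a mean correlation of their deviations of 0.02 in RPE Bmal1 WT, with a lowest of -0.39, and of 0.35 in RPE Bmal1 KO, where 16 of 18 such pairs were over 0.1 and different numbers had a mean of -0.16. In RPE Bmal1 WT 5 of 18 pairs were over 0.1, and 14 of all 24 libraries correlated best with their own number. Since not every pair was over 0.1, the numbers were not taken as a pairing in the main tests. That rule is strict, and the main tests leave the likeness of same-numbered RPE Bmal1 KO libraries unmodelled. Genes called over time in RPE Bmal1 WT numbered 0, 795 without a filter on low counts, 24 with DESeq2 and 13 without WT ZT1 replicate 2. In RPE Bmal1 KO they numbered 2, 60 without the filter, 50 with DESeq2, 24 without the receptor-rich libraries, between 0 and 24 when each RPE Bmal1 KO library was left out (24 without KO ZT1 replicate 1, 10 without KO ZT7 replicate 3) and 0 with library size alone or the linear model. Over both genotypes they numbered 9, 19 without the filter, 78 with DESeq2, 14 with limma-trend, 6 with library size alone, 5 without the receptor-rich libraries, 61 without KO ZT7 replicate 3 and 2 with the linear model. For the genotype average they numbered 0, 1 without the filter and 321 without WT ZT13 replicate 2. At ZT1 they numbered 0, 118 without the filter and 2 with DESeq2. The cause of these changes was not tested.

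The limits lie in 3 mice a group, a within-group SD of log2 CPM up to 0.86, and depth. Atp6v0a4, Atp6v1c2, Atp6v1b1 and Atp6v0d2 rest on 2 to 41 counts a library. WT ZT7 replicate 1, at 2069527 counts, holds the lowest value of many members. Genotype names rest on the diet names of the columns, and the mean levels of the rod and muscle lists did not overlap between genotypes at ZT1.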
